A study of Mus musculus with 20 samples.

Results

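The inflammasome and gasdermin genes were examined in the colon of mice given azoxymethane (AOM), dextran sulfate sodium (DSS) and Pien Tze Huang (PZH). The set holds 10 genes of 32991 with a value, selected by gene name, although with earlier results of these data known: the sensors Nlrp3, Nlrp6 and Aim2, the adaptor Pycard, the caspases Casp1 and Casp4, and the gasdermins Gsdmd, Gsdmc2, Gsdmc3 and Gsdmc4. For each gene the FPKM (fragments per kilobase of transcript and per M mapped fragments) of its annotated transcripts were summed in each mouse.

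Colon RNA from 20 male C57BL/6 mice was sequenced, with 1 library per mouse and 5 mice in each of 4 groups. Control mice received double-distilled water by gavage over 91 days and neither AOM nor DSS. PZH mice received the traditional Chinese medicine PZH at 250 mg/kg/d over the same 91 days. AOM/DSS mice, labelled Model, received water by gavage, a single injection of the carcinogen AOM at 12.5 mg/kg and, after 7 days, 4 cycles of 2% DSS in the drinking water for 5 days followed by 2 weeks of plain water, which is a model of colitis-associated cancer. PZH + AOM/DSS mice received AOM, DSS and PZH. All 4 groups were thus handled by gavage, and the labels do not say whether tumor or surrounding colon was taken.

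Inflammasomes are protein complexes that form when a sensor such as NLRP3, NLRP6 or AIM2 detects damage or microbial products. The adaptor ASC, the product of Pycard, links the sensor to caspase-1, which matures interleukin-1 beta and interleukin-18 and cleaves gasdermin D, a protein whose amino-terminal part forms pores in the cell membrane. Caspase-4 (the mouse gene is also called caspase-11) responds to bacterial lipopolysaccharide. NLRP6 is known mainly from intestinal epithelium and NLRP3 from myeloid cells. The mouse Gsdmc genes are a cluster of close copies expressed in intestinal epithelium, where type 2 cytokines are known to raise them.

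The 3 Gsdmc members lie next to each other on the minus strand of chromosome 15 (GRCm38), Gsdmc2 at chr15:63824346-63845177, Gsdmc3 at chr15:63857724-63878558 and Gsdmc4 at chr15:63891264-63912297. Their coding sequences were 97.1% identical between Gsdmc2 and Gsdmc3 (1401 of 1443 aligned bases) and 93.5% identical between Gsdmc4 and each of the other two. The opening 120 coding bases of each are shown because fragments from such stretches cannot be assigned to 1 gene with certainty. They are read 5′ to 3′ from the GENCODE M21 transcripts, and capitals mark the 2 positions at which the copies differ.
Gsdmc2 (chr15:63835824-63835943, minus strand): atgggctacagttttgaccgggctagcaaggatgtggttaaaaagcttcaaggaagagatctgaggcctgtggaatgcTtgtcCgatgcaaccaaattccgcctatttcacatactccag
Gsdmc3 (chr15:63869178-63869297, minus strand): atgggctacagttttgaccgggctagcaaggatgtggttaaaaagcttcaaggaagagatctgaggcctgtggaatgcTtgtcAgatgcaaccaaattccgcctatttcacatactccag
Gsdmc4 (chr15:63902811-63902930, minus strand): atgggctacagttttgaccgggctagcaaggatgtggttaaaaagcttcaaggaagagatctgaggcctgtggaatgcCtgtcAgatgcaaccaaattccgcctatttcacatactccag
Of the 100-base windows of the main transcript, 28.6% in Gsdmc2, 31.1% in Gsdmc3 and 19.6% in Gsdmc4 also occurred in another Gsdmc gene. Levels of the separate copies are therefore uncertain, and the sum of Gsdmc, Gsdmc2, Gsdmc3 and Gsdmc4 is given beside them.

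Depth, read from the smallest step of FPKM multiplied by transcript length, was 15.3 to 19.5 M fragments per mouse, and only 37.7 to 45.5% of low values fell on whole steps, so this depth is approximate. One note of the submitters names the abdominal aorta as the dissected tissue, whereas the label gives colon. The colon identity genes Cdx1, Cdx2, Cdh17 and Hnf4a summed to 371 to 662 FPKM and none was listed at 0 in any mouse. Among 8 pan-epithelial markers, Epcam was listed at 0 in 13 mice and at 233 to 865 FPKM in the other 7, and Krt8 ranged from 0.0706 to 3071 FPKM, while Cdh1 (215 to 311 FPKM) and Krt18 (220 to 462 FPKM) were high in every mouse. An exact 0 can be a failed estimate, so Epcam is given as listed only. No member was listed at 0 in any mouse. Squamous epithelium markers summed to 302 and 251 FPKM in Control mice 17 and 50 but to 0.824 to 1.65 FPKM in the other 3 Control mice.

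**Figure D1:**
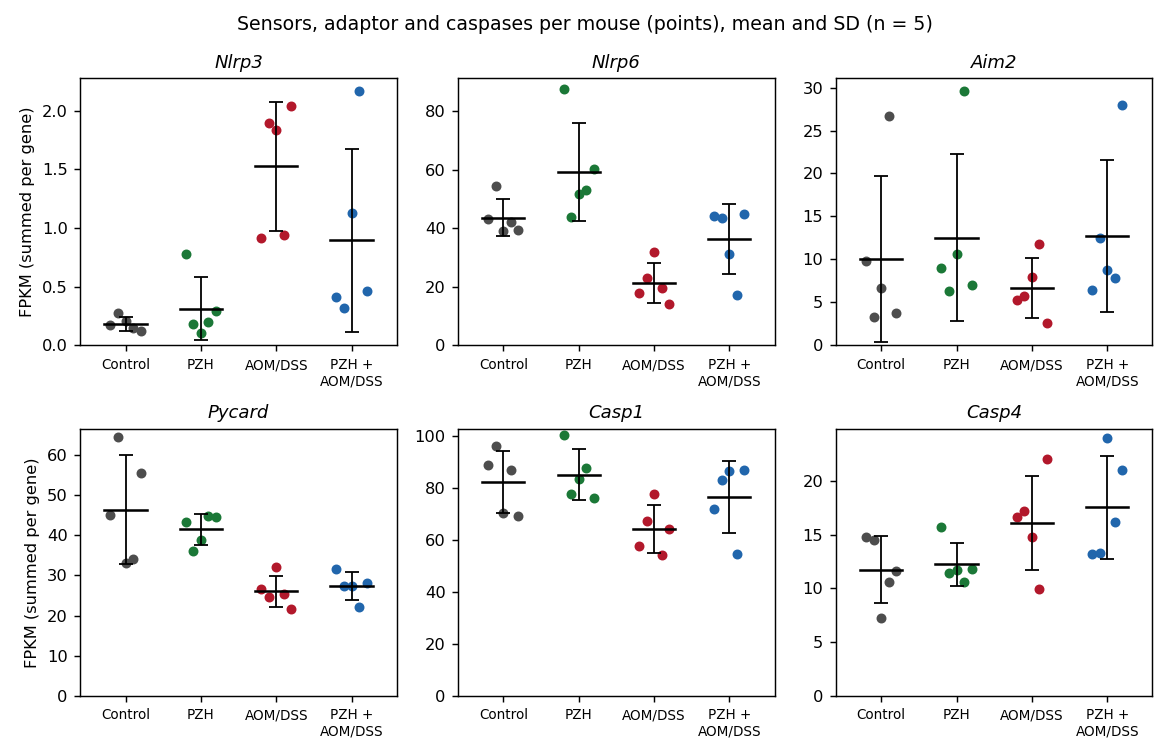
FPKM summed per gene (y axis, from 0) for the 3 sensors, the adaptor and the caspases in the 4 groups (x axis). Each point is a mouse, the horizontal line is the mean and the error bar 1 SD (n = 5). Nlrp3 lay between 0.919 and 2.04 FPKM in AOM/DSS mice, above all Control mice, while Nlrp6 and Pycard lay below all Control mice.

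Between AOM/DSS and Control mice, 1 member was higher (Nlrp3) and 4 were lower (Nlrp6, Pycard, Gsdmc2 and Gsdmc4) by limma at a Benjamini-Hochberg adjusted p under 0.05 over 15812 genes. Over all genes tested, 23.6% passed this threshold, 16.4% as higher and 7.23% as lower. The median difference on the log2(FPKM + 1) scale was -0.56 over the 10 members, Nlrp3 included, and 0.09 over all genes. Gsdmc2, Gsdmc3 and Gsdmc4 are close copies that share sequence, so they do not count as separate members here. The groups did not overlap for 1 member that was higher (Nlrp3) and 2 that were lower (Nlrp6 and Pycard), against 18.4% of all genes in either direction, 13% higher and 5.43% lower. Nlrp3 passed the filter on low values only through AOM/DSS mice, so it had to differ and adds nothing to these counts, whereas the other 9 members were at 0.5 FPKM or more in every mouse. Without Control mice 17 and 50, which had high squamous markers, 3 members were called (Nlrp3, Nlrp6 and Gsdmc4), and 2881 of 16484 genes. All values in this comparison come from bulk tissue, in which fewer cells of a type and less RNA per cell cannot be told apart.

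Nlrp3, at chr11:59541568-59566956 on the plus strand, encodes a sensor of membrane damage and ion flux. In Control mice 17, 37, 41, 48 and 50 it stood at 0.171, 0.275, 0.208, 0.147 and 0.124 FPKM, and in PZH mice 8, 14, 27, 46 and 53 at 0.78, 0.184, 0.107, 0.199 and 0.292 FPKM. In AOM/DSS mice 23, 30, 33, 44 and 52 it stood at 0.919, 1.9, 1.84, 0.944 and 2.04 FPKM, and in PZH + AOM/DSS mice 2, 13, 15, 35 and 36 at 0.409, 0.317, 1.13, 2.17 and 0.466 FPKM. This order of mice is used for every gene that follows. All AOM/DSS mice were above all Control mice, and 3 of the 5 PZH + AOM/DSS mice were below all AOM/DSS mice. Nlrp3 rose from a mean of 0.185 ± 0.0593 to 1.53 ± 0.551 FPKM (SD, n = 5), a log2(FPKM + 1) difference of 1.07 (SE 0.15, adjusted p = 0.000694), a scale that understates changes near 0. The same comparison gave 2.46 with a pseudocount of 0.1. These levels rest on 9 to 20 estimated fragments per Control mouse and 60 to 144 per AOM/DSS mouse.

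The short transcript Nlrp3-203 (676 bases) contributed unevenly between mice. It stood at 0.697 FPKM in PZH mouse 8, at 0.767 and 0.974 FPKM in PZH + AOM/DSS mice 15 and 35 and at 0.173 FPKM in PZH mouse 46, from 2 to 11 estimated fragments, and was listed at 0 in the remaining mice of these groups and in all Control mice. The long transcript Nlrp3-202 (4021 bases) alone stood at 0.875, 1.77, 1.8, 0.922 and 2.02 FPKM in AOM/DSS mice and at 0.409, 0.317, 0.36, 1.19 and 0.466 FPKM in PZH + AOM/DSS mice. On this transcript 4 of the 5 PZH + AOM/DSS mice were below all AOM/DSS mice, and mouse 35 was within their range. For AOM/DSS mice with PZH minus those without, the log2(FPKM + 1) value was -0.47 for the gene (SE 0.26, adjusted p = 0.493) and -0.68 for Nlrp3-202 (adjusted p = 0.414), neither past the threshold.

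The 250 bases before the start of Nlrp3-202 are shown because Nlrp3 was the only member called as higher, a call that the filter on low values favoured. The sequence is from RefSeq promoters on GRCm38.p6, at chr11:59542436-59542685 on the plus strand, and capitals mark a match to the STAT motif with a 4-base spacer.
Nlrp3: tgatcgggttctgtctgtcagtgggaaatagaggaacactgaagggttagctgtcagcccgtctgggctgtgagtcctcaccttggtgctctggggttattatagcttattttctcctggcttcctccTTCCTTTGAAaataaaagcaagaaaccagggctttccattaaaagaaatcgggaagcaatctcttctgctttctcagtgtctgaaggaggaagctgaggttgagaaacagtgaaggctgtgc
Motifs were searched on both strands as letters: TGANTCA (AP-1), TTC and GAA with any 3 or any 4 bases between them (STAT), TTTATG (CDX) and GAAA repeated with any 2 bases between (interferon response core). Of 32851 promoter windows of this length, 6.75%, 7.02%, 5.85%, 10.8% and 2.98% held them, in that order. The STAT letters with 3 and 4 bases between were counted apart, and matches of different motifs may overlap. Of the 10 members 7 had a promoter entry, 9 entries in all. A second Nlrp3 entry and those of Aim2 and Casp1 held none of the motifs. Both Casp4 entries held the CDX letters, but these entries overlap and the match is the same site.

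Nlrp6, at chr7:140920902-140929192 on the plus strand, encodes an epithelial sensor that takes part in mucus secretion and antimicrobial defence. It stood at 43.2, 54.4, 39.2, 42.2 and 39.4 FPKM in Control mice and at 87.6, 43.8, 51.6, 53 and 60.3 FPKM in PZH mice. In AOM/DSS mice it stood at 17.9, 23.1, 31.8, 19.7 and 14.1 FPKM, and in PZH + AOM/DSS mice at 44.1, 43.7, 31.4, 17.3 and 44.8 FPKM. All AOM/DSS mice were below all Control mice, and PZH + AOM/DSS mice spanned both ranges, with mouse 35 at the level of AOM/DSS mice. Nlrp6 fell from 43.7 ± 6.22 to 21.3 ± 6.71 FPKM (SD, n = 5), a log2(FPKM + 1) difference of -1.04 (SE 0.19, adjusted p = 0.0031), and 96.6% of its level over all mice came from the transcript Nlrp6-203. Nlrp3 and Nlrp6 moved in opposite directions. The ratio of Nlrp6 to Nlrp3 FPKM was 189 to 318 in Control mice and 6.89 to 20.9 in AOM/DSS mice. These ranges had to separate, because neither gene overlapped between the groups and the genes moved apart. In PZH mice the ratio was 112 to 483, with mouse 8 below all Control mice. In PZH + AOM/DSS mice the ratio was 108, 138, 27.9, 8.01 and 96.1. Of these mice, 4 lay between the AOM/DSS and Control ranges, as PZH mouse 8 did, and mouse 35 lay within the AOM/DSS range. In PZH mouse 8 and PZH + AOM/DSS mouse 15 most of the Nlrp3 level came from the transcript Nlrp3-203.

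The Nlrp6 promoter is shown because it held an AP-1 match (capitals), at chr7:140920652-140920901 on the plus strand.
Nlrp6: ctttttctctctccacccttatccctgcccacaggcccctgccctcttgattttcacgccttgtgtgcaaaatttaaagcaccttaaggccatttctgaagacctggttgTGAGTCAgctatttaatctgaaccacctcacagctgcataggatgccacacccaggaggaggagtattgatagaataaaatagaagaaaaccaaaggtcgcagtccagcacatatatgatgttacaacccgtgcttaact
The match is a description of these letters and not evidence of binding.

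Aim2, at chr1:173350879-173466040 on the plus strand, encodes a sensor of cytosolic DNA and overlaps Cadm3 on the other strand. It stood at 9.83, 3.35, 6.73, 26.7 and 3.82 FPKM in Control mice and at 9.03, 6.27, 10.6, 29.6 and 7.01 FPKM in PZH mice. It stood at 5.29, 5.72, 7.96, 11.8 and 2.55 FPKM in AOM/DSS mice and at 6.43, 12.5, 8.79, 7.81 and 28 FPKM in PZH + AOM/DSS mice. The 4 groups overlapped, and a single mouse stood far above the rest in each group except AOM/DSS. In these 3 mice the transcript Aim2-204 was at 22, 23.2 and 23.5 FPKM, against 0.066 to 2.01 FPKM in the other 17 mice, while the remaining Aim2 transcripts of the 3 mice summed to 4.7, 6.34 and 4.51 FPKM. The difference between AOM/DSS and Control mice was -0.30 (SE 0.50, adjusted p = 0.714) and turned to 0.12 without Control mouse 48. Aim2 is reported by its values for this reason.

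Pycard, at chr7:127989708-127993867 on the minus strand, encodes the adaptor ASC. It stood at 45.0, 64.4, 33, 34.2 and 55.5 FPKM in Control mice and at 43.3, 36.1, 38.9, 44.8 and 44.5 FPKM in PZH mice. It stood at 26.6, 24.6, 32.2, 25.3 and 21.5 FPKM in AOM/DSS mice and at 31.7, 27.4, 27.3, 22 and 28 FPKM in PZH + AOM/DSS mice. Every mouse given AOM and DSS was below every mouse not given them, with or without PZH. Pycard fell from 46.4 ± 13.6 to 26.0 ± 3.93 FPKM (SD, n = 5) between Control and AOM/DSS mice, a log2(FPKM + 1) difference of -0.78 (SE 0.19, adjusted p = 0.0139). This call was lost without Control mice 17 and 50 (-0.68, adjusted p = 0.0746). Pycard also fell between PZH and PZH + AOM/DSS mice, by 0.59 on the log2(FPKM + 1) scale (SE 0.11, adjusted p = 0.0308), where 2.42% of genes passed, 0.678% as lower. This second call was lost without any of PZH mice 8, 14, 27, 46 and 53 or PZH + AOM/DSS mouse 15 (adjusted p = 0.0516 to 0.0790). The annotated locus Gm45205 overlaps Pycard on the other strand, and the strand of the libraries is not given in the sources used here.

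The Pycard promoter is shown because Pycard was the member that fell in both comparisons of AOM/DSS. It lies at chr7:127993868-127994117 on the minus strand and held none of the motifs searched.
Pycard: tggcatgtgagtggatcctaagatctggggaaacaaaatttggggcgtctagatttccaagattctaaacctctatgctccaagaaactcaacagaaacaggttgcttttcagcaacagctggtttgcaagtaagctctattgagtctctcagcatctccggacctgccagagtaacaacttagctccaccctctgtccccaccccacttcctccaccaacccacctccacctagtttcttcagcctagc
No match says only that those letters are not in this window.

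Casp1, at chr9:5298517-5307265 on the plus strand, encodes the caspase that ASC recruits. It stood at 88.8, 96.1, 70.3, 86.7 and 69.3 FPKM in Control mice, 100.4, 77.8, 83.3, 87.8 and 76.1 FPKM in the PZH group, 57.8, 67.3, 77.5, 54.0 and 64.3 FPKM in AOM/DSS mice and 71.8, 82.9, 86.6, 54.4 and 87.0 FPKM in PZH + AOM/DSS mice. The AOM/DSS range overlapped the Control range, with 4 AOM/DSS mice below all Control mice. The difference of -0.35 on the log2(FPKM + 1) scale (SE 0.13) had an adjusted p of 0.0732. It passed the threshold with median-of-ratios scaling (-0.46, adjusted p = 0.0449) and without AOM/DSS mouse 33 (-0.42, adjusted p = 0.04435).

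Casp4, at chr9:5308828-5336783 on the plus strand right next to Casp1, had a lower level than Casp1 in every mouse. It stood at 14.8, 14.5, 7.22, 10.6 and 11.6 FPKM in Control mice, 15.7, 11.4, 11.7, 10.6 and 11.8 FPKM in the PZH group, 16.6, 17.2, 14.8, 9.92 and 22 FPKM in AOM/DSS mice and 13.2, 13.3, 24.0, 16.2 and 21 FPKM in PZH + AOM/DSS mice. Control and AOM/DSS mice overlapped, and the difference of 0.42 (SE 0.23) had an adjusted p of 0.208. For its most abundant transcript alone, which made up 49.3% of the level, the difference was 0.71 (adjusted p = 0.0385). The transcript Casp4-207, a retained intron, stood at 8.41 and 7.93 FPKM in PZH + AOM/DSS mice 15 and 36 and at 0.855 to 2.83 FPKM in the other 18 mice.

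**Figure D2:**
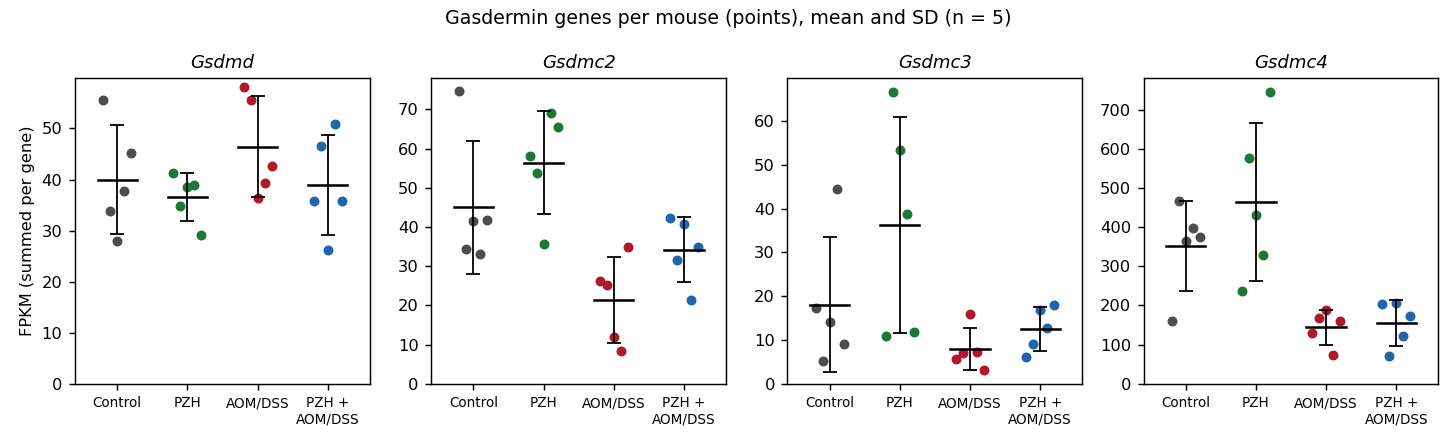
FPKM summed per gene (y axis, from 0) for the 4 gasdermin members in the 4 groups (x axis). Each point is a mouse, the line is the mean and the error bar 1 SD (n = 5). Gsdmc4 was at 73.1 to 189.7 FPKM in AOM/DSS mice and at 159.1 to 465.8 FPKM in Control mice, where the lowest mouse was 17, whereas Gsdmd overlapped between all groups.

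Gsdmd, at chr15:75862327-75867408 on the plus strand, encodes the pore-forming substrate of caspase-1 and caspase-4. It stood at 55.5, 33.8, 27.9, 37.7 and 45.1 FPKM in Control mice and at 58.2, 55.6, 36.4, 39.4 and 42.7 FPKM in AOM/DSS mice. PZH mice ranged from 29.1 to 41.3 FPKM and PZH + AOM/DSS mice from 26.2 to 50.8 FPKM. All 4 groups overlapped, and the difference between AOM/DSS and Control mice was 0.22 on the log2(FPKM + 1) scale (95% confidence interval -0.21 to 0.65, adjusted p = 0.450).

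Gsdmc4 had the highest level of the members. It stood at 159.1, 465.8, 365.7, 398.9 and 375.7 FPKM in Control mice, 235.9, 577.7, 432.1, 328.9 and 746.5 FPKM in the PZH group, 130.3, 168.4, 189.7, 73.1 and 160.0 FPKM in AOM/DSS mice and 202.7, 70.4, 205.3, 121.1 and 174.1 FPKM in PZH + AOM/DSS mice. Control mouse 17 lay within the AOM/DSS range, the other 4 Control mice lay above it, and all PZH + AOM/DSS mice lay below all PZH mice. Gsdmc4 fell from 353 ± 115 to 144 ± 45.1 FPKM (SD, n = 5), a log2(FPKM + 1) difference of -1.27 (SE 0.32, adjusted p = 0.0159).

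Gsdmc2 stood at 74.6, 34.3, 41.5, 33.1 and 41.8 FPKM in Control mice, 58.2, 53.7, 35.6, 69.0 and 65.5 FPKM in the PZH group, 26.2, 25.3, 11.9, 8.28 and 34.9 FPKM in AOM/DSS mice and 42.2, 31.7, 40.8, 21.4 and 35 FPKM in PZH + AOM/DSS mice. AOM/DSS mouse 52 lay within the Control range and the other 4 below it. The difference of -1.15 (SE 0.37, adjusted p = 0.0449) was close to the threshold, and the call was lost without any of Control mice 17, 37, 41, 48 and 50 or AOM/DSS mice 23, 33 and 44 (adjusted p = 0.0508 to 0.0960), and without Control mice 17 and 50 together (-0.91, adjusted p = 0.176). In AOM/DSS mice Gsdmc2 varied more than Gsdmc4, with a coefficient of variation of 51.65% against 31.3%.

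Gsdmc3 had the lowest mean and the largest coefficient of variation of the 3 copies in Control mice (85.8%), at 17.2, 5.27, 14.1, 44.4 and 9.11 FPKM. It stood at 11, 66.5, 53.3, 38.7 and 11.9 FPKM in the PZH group, 5.71, 7.03, 15.9, 7.35 and 3.2 FPKM in AOM/DSS mice and 6.21, 9.04, 16.8, 12.8 and 18.0 FPKM in PZH + AOM/DSS mice. All groups overlapped, and the difference between AOM/DSS and Control mice was -0.92 (SE 0.50, adjusted p = 0.216). The high mice were high through the long transcripts Gsdmc3-202 and Gsdmc3-203, at 11.1 to 34.4 and 11.5 to 21.3 FPKM in Control mouse 48 and PZH mice 14, 27 and 46. In the other 16 mice these transcripts were at most 8.82 and 7.68 FPKM.
Gsdmc3: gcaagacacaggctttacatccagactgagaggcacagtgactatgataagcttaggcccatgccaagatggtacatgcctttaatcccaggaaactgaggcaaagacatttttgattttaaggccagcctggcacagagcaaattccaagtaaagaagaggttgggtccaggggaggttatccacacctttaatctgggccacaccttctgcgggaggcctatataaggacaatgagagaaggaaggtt
These 250 bases (chr15:63878559-63878808, minus strand) are shown because Gsdmc3 was the one Gsdmc copy with a promoter entry, and they held none of the motifs.

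Summed over Gsdmc, Gsdmc2, Gsdmc3 and Gsdmc4, the family was at 252 to 508 FPKM in Control mice, 308 to 824 in PZH mice, 89.2 to 219 in AOM/DSS mice and 111 to 263 in PZH + AOM/DSS mice. AOM/DSS mice lay below all Control mice, and PZH + AOM/DSS mice overlapped with Control mouse 17 alone. In limma the sum fell by 1.28 on the log2(FPKM + 1) scale between Control and AOM/DSS mice (SE 0.26, adjusted p = 0.00566) and by 1.45 between PZH and PZH + AOM/DSS mice (SE 0.31, adjusted p = 0.0403). For Gsdmc4 alone the second difference was -1.57 (SE 0.36, adjusted p = 0.0508), and without PZH mouse 8 it was -1.78 (adjusted p = 0.0448). Between AOM/DSS mice with and without PZH the sum differed by 0.21 (95% confidence interval -0.45 to 0.86, adjusted p = 0.811). Gsdmc4 made up 63.0 to 91.6% of the sum in Control mice and 79.8 to 86.8% in AOM/DSS mice. The sum was formed after the values had been seen.

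**Figure D3:**
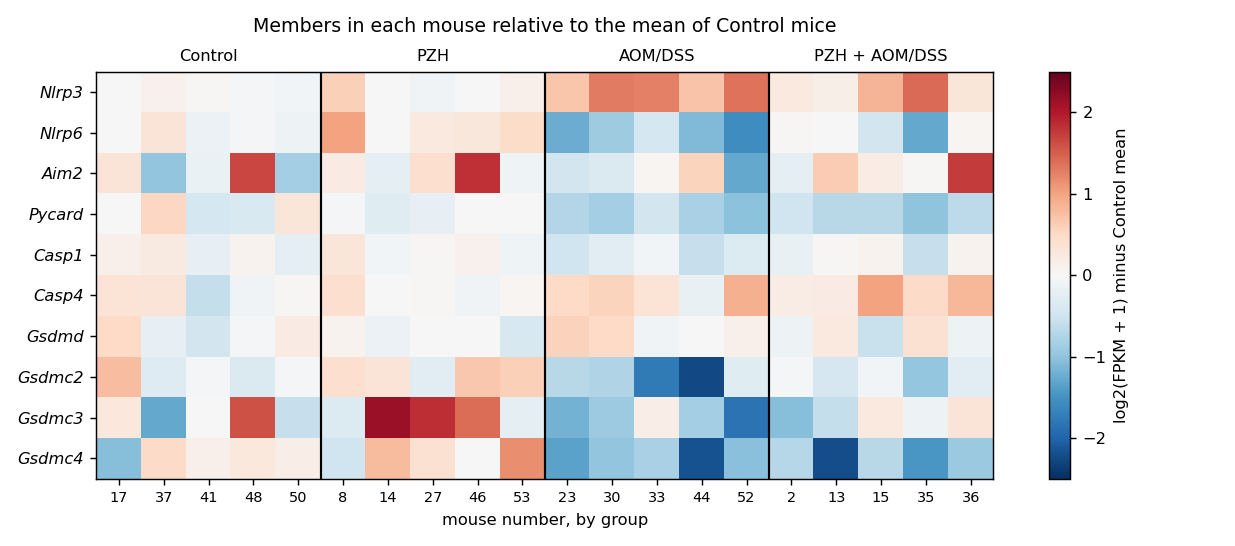
Each cell is the log2(FPKM + 1) level of a member (rows) in a mouse (columns, by group) minus the mean of the Control mice, from blue (lower) to red (higher). Within its group, PZH + AOM/DSS mouse 35 had the highest Nlrp3 (2.17 FPKM) and the lowest Nlrp6 (17.3 FPKM) and Casp1 (54.4 FPKM). It also had the highest Gsdmd and the lowest Pycard and Gsdmc2 of its group. Its Aim2, Casp4, Gsdmc3 and Gsdmc4 lay inside the range of the other 4 mice.

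No member passed the threshold with PZH alone. Against Control mice, 0 of 9 members tested were called by limma, where 0.00645% of 15506 genes were (1 gene), and Nlrp3 did not pass the filter. At an unadjusted p under 0.05 there was 1 member, Nlrp6, against 8.84% of all genes. Its level in PZH mice was 59.3 ± 16.9 FPKM against 43.7 ± 6.22 FPKM in Control mice (SD, n = 5), a log2(FPKM + 1) difference of 0.40 (SE 0.17, adjusted p = 0.546). The widest interval was that of Gsdmc3, with 0.96 (95% confidence interval -0.39 to 2.32), so the spread of Gsdmc3 between mice left a wide range of differences possible. No member was free of overlap between these groups, against 1.81% of genes.

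In mice given AOM and DSS, no member passed the threshold with PZH either, with 0 of 10 called by limma, where 0.00629% of 15888 genes were (1 gene). At an unadjusted p under 0.05 there was 1 member, against 11.7% of all genes. This was Nlrp6, at 36.3 ± 11.9 against 21.3 ± 6.71 FPKM (SD, n = 5), with a log2(FPKM + 1) difference of 0.71 (95% confidence interval 0.09 to 1.34, adjusted p = 0.385). Gsdmc2 differed by 0.79 (95% confidence interval -0.00255 to 1.58, adjusted p = 0.428), from 21.3 ± 11 to 34.2 ± 8.36 FPKM. Pycard differed by 0.07 (95% confidence interval -0.22 to 0.35) and Gsdmc4 by 0.07 (95% confidence interval -0.67 to 0.81). No member was free of overlap between these groups, against 1.08% of genes. The median over the members was 0.18, against -0.04 over all genes.

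Whether Nlrp6 was called for PZH within AOM/DSS depended on PZH + AOM/DSS mouse 35. Without mouse 35 Nlrp6 differed by 0.95 (SE 0.22, adjusted p = 0.0380) and was the 1 member called, of 10. Mouse 35 had the lowest Nlrp6 of its group, so leaving it out had to raise this difference. The count over all genes went from 1 of 15888 to 814 of 16139 tested, so the change was not particular to Nlrp6. Mouse 35 also had the lowest sum of surface colonocyte markers of its group, 1238 FPKM against 2488 to 3340 FPKM in the other 4, and the highest sum of squamous markers, 59.5 FPKM against 2.52 to 9.22 FPKM. Its sum of macrophage and monocyte markers was 808 FPKM against 425 to 616 FPKM, and its goblet cell markers summed to 4148 FPKM against 8123 to 9861 FPKM. The part of these cell types in the values of mouse 35 was not tested.

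PZH + AOM/DSS mice were also compared with Control mice, where 2.42% of genes passed and 0 of 9 members tested did. Pycard was at 27.3 ± 3.46 FPKM against 46.4 ± 13.6 FPKM, without overlap (-0.71, adjusted p = 0.0747), and Gsdmc4 at 155 ± 58.0 against 353 ± 115 FPKM (-1.20, adjusted p = 0.0898). Nlrp6 differed by -0.33 (95% confidence interval -0.86 to 0.20). At an unadjusted p under 0.05 there were 3 members, against 20.9% of genes. The groups did not overlap for Pycard (lower) and for the untested Nlrp3 (higher), against 6.76% of genes, 4.18% higher and 2.59% lower. Against PZH mice, 1 of 9 members was called (Pycard) and 6 had an unadjusted p under 0.05, against 20.9% of genes. Pycard and Gsdmc4 were lower without overlap in that comparison, against 7.37% of genes, 2.37% lower. The comparisons share groups of mice and are not separate evidence.

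Whether the difference made by PZH depended on AOM and DSS was asked with the interaction term over all 20 mice. It passed for 0 of 10 members, where 0.0118% of 16936 genes did, and no member had an unadjusted p under 0.05, against 10.3% of genes. The largest interaction term among the members was that of Nlrp3 at -0.60 (SE 0.29, adjusted p = 0.498), and that of Nlrp6 was 0.31 (95% confidence interval -0.42 to 1.03).

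**Figure D4:**
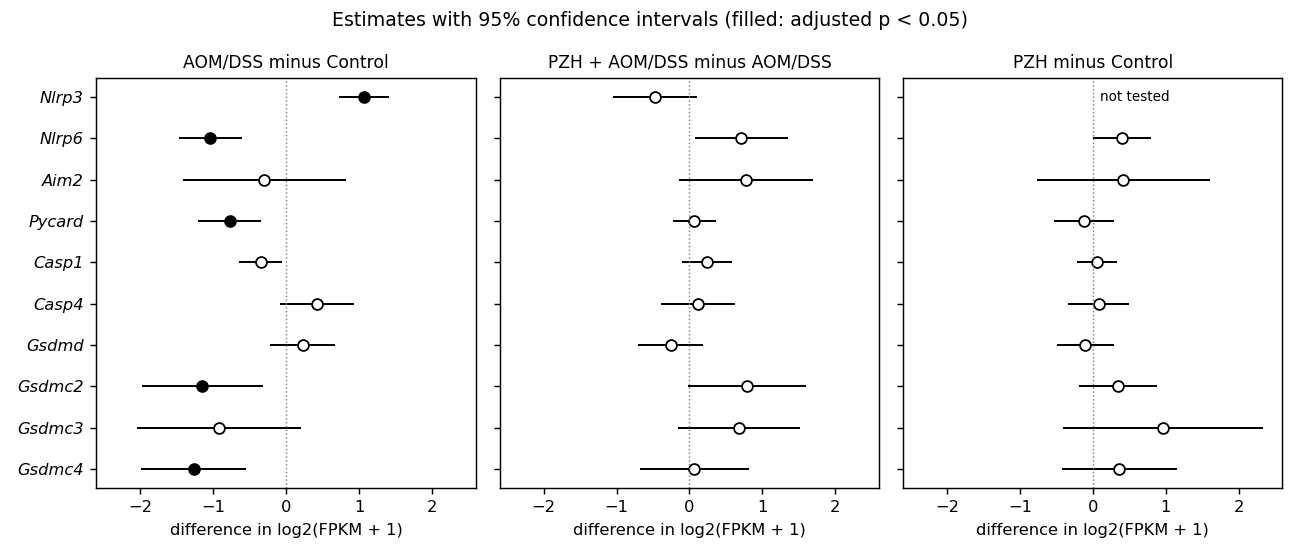
Differences in log2(FPKM + 1) for the 10 members (rows) in 3 comparisons (panels), with 95% confidence intervals from limma (n = 5 per group) and filled points at an adjusted p under 0.05. In AOM/DSS against Control mice 5 points are filled, among them Nlrp3, which passed the filter on low values only through AOM/DSS mice. None is filled in the 2 comparisons of PZH.

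Other genes of the pathway were taken from lists made for this tissue. Of 23 other sensors and regulators, 21 were tested and 6 rose and 1 fell between Control and AOM/DSS mice. This and the list counts that follow stand against 16.4% higher and 7.23% lower over all genes. One that rose, Nlrc3, had a Control mean under the filter of 0.5 FPKM and entered through AOM/DSS mice. The largest were Nlrc5, a regulator of MHC class I genes (1.55 ± 0.544 to 5.38 ± 1.85 FPKM, difference 1.29), Zbp1, a sensor of Z-form nucleic acid (0.90), and Mefv, which encodes pyrin (0.68). The 1 that fell was Nlrp9b, a sensor known from intestinal epithelium (11.9 ± 2.01 to 6.83 ± 2.91 FPKM, difference -0.79, adjusted p = 0.0463). The median over this list was 0.33. Neither Nlrc4 (0.35, adjusted p = 0.0651) nor Naip6 (-0.44, adjusted p = 0.0584), which together sense flagellin, passed. Of 8 other caspases, 1 rose, Casp12 (4.38 ± 1.53 to 7.72 ± 1.12 FPKM, difference 0.73), and none fell.

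Of 9 other gasdermins and membrane rupture genes, 6 were tested and 2 rose. Gsdma, a gasdermin known from skin and upper gut, went from 1.49 ± 1.17 to 13.4 ± 4.96 FPKM (SD, n = 5), with a difference of 2.56 (SE 0.33, adjusted p = 0.000384). Ripk3, a kinase of necroptosis, went from 13.8 ± 1.60 to 24.5 ± 4.42 FPKM (0.77, adjusted p = 0.00212). Among the gasdermins, Gsdma was thus called as higher and Gsdmc2 and Gsdmc4 as lower, and Gsdmd was not called. Gsdma was at 4.10 ± 5.31 FPKM in PZH + AOM/DSS mice, and its difference from AOM/DSS mice was -1.87 (adjusted p = 0.356). Gsdma2, Gsdma3 and Pjvk were at most 0.746 FPKM in every mouse. The sum of squamous markers was 11.7 to 35.4 FPKM in AOM/DSS mice. It was 0.824 to 1.65 FPKM in 3 of the 5 Control mice but 302 and 251 FPKM in Control mice 17 and 50. The part of squamous epithelium in Gsdma was not tested.

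The guanylate-binding proteins and interferon inducers, which help open bacteria to caspase-4, included 8 of 14 tested genes that rose and none that fell, against 16.4% higher over all genes. The median difference over the list was 0.87. Gbp2 went from 9.14 ± 6.79 to 33.4 ± 12.0 FPKM (1.98, adjusted p = 0.0127), Gbp3 from 2.07 ± 1.72 to 9.35 ± 4.63 FPKM (1.78), Gbp5 from 1.67 ± 0.498 to 5.54 ± 2.098 FPKM (1.26) and Irgm2 from 9.83 ± 3.56 to 24.2 ± 6.60 FPKM (1.24). In PZH + AOM/DSS against Control mice 9 of 14 were called as higher, where 2.42% of all genes passed in either direction. Against AOM/DSS mice none was called, with a median of 0.60. At an unadjusted p under 0.05 there were 8 of 14, against 11.7% of all genes. Their summed level was 438, 630, 608, 272 and 270 FPKM in PZH + AOM/DSS mice 2, 13, 15, 35 and 36. In AOM/DSS mice it was 180 to 338 FPKM, a range that held mice 35 and 36.

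Of the 13 interleukin outputs and their receptors, 7 rose and 1 fell between Control and AOM/DSS mice. Of the 7, 5 (Il1a, Il1r2, Il36g, Il18r1 and Il18rap) had a Control mean under 0.5 FPKM and passed the filter through AOM/DSS mice, so they had to come out higher. Of the 8 other genes, 2 rose and 1 fell. Il1b, whose product caspase-1 matures, went from 2.71 ± 2.13 to 52.8 ± 19.2 FPKM (3.97, adjusted p = 6.6e-05). Il1r2, the gene of its decoy receptor, was listed at 0 in 4 of 5 Control and all 5 PZH mice and stood at 3.45 to 6.09 FPKM in AOM/DSS mice. Il1a went from 0.270 ± 0.158 to 5.10 ± 2.20 FPKM (2.20). Il36g went from 0.298 ± 0.510 to 4.37 ± 2.49 FPKM (2.00). Il18, the other substrate of caspase-1, fell from 67.0 ± 20.4 to 34.3 ± 7.36 FPKM (-0.92, adjusted p = 0.00945). The genes of these caspase-1 substrates moved in opposite directions. For PZH within AOM/DSS, Il1b differed by -1.17 (adjusted p = 0.398) and Il18 by 0.21 (adjusted p = 0.715), and no gene of the list was called.

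The type 2 response list was examined because type 2 cytokines are known to raise the Gsdmc genes. Of its 14 genes 8 were tested, 5 rose and none fell in AOM/DSS against Control mice. Of these 5, 2 (Chil3 among them) had a Control mean under 0.5 FPKM and entered through AOM/DSS mice, and of the 5 other genes tested 3 rose. Arg1 differed by 3.14 (adjusted p = 0.0368), Retnlb by 2.59 (0.0246), Chil3 by 2.13 (0.0399) and Il4ra, a subunit of the interleukin-4 and interleukin-13 receptors, by 1.72 (from 8.30 ± 1.03 to 29.6 ± 4.15 FPKM). The cytokine genes Il4, Il5, Il13 and Il25 had group means of at most 0.553 FPKM. The Gsdmc sum fell in the same comparison, and the part of type 2 cytokines in the Gsdmc levels was not tested. Retnlb was at 222 ± 206 FPKM in PZH mice against 2.83 ± 2.44 FPKM in Control mice, a difference that did not pass the threshold (adjusted p = 0.378).

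Markers of other cell types moved with the members between Control and AOM/DSS mice. Of 10 surface colonocyte markers, 6 fell and none rose, with sums of 3876 to 5222 FPKM in Control mice, 3161 to 3830 in PZH mice, 876 to 2140 in AOM/DSS mice and 1238 to 3340 in PZH + AOM/DSS mice. Of 7 neutrophil markers tested, 6 rose, but 4 of them (Cxcr2, Mmp8, Retnlg and Stfa2l1) had a Control mean under 0.5 FPKM and had to come out higher, and of the 3 other markers 2 rose. Neutrophil markers had sums of 81.0 to 399 FPKM in Control and 241 to 669 FPKM in AOM/DSS mice, and of 12 macrophage and monocyte markers 6 rose (312 to 599 and 545 to 716 FPKM). S100a9 was listed at 0 in 2 Control mice, all 5 PZH mice and 2 PZH + AOM/DSS mice, whereas S100a8 was listed at 0 in 1 Control mouse only. These zeros are given as listed. All 6 smooth muscle markers fell (2244 to 5172 and 996 to 1734 FPKM), and of 7 pan-epithelial markers 1 fell. Without Epcam and Krt8, whose values were erratic, the 6 other pan-epithelial markers summed to 2729 to 3486 FPKM in Control, 2644 to 3137 in PZH, 2218 to 2522 in AOM/DSS and 2055 to 2807 in PZH + AOM/DSS mice, so that AOM/DSS mice were below all Control mice. On average the colonocyte sum was highest in Control mice and Nlrp6 in PZH mice. The Nlrp6 levels of PZH and Control mice overlapped, and their difference did not pass the threshold. The part of these cell types in the differences of the members was not tested.

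The remaining lists moved as follows between Control and AOM/DSS mice. Among the immune lists, 1 of 4 dendritic cell, 4 of 6 T and NK cell and 2 of 6 B cell markers tested rose, and none fell. Among the epithelial lists, 1 of 7 goblet and 1 of 5 tuft cell markers rose, 2 of 4 colon identity genes fell, and none of 4 squamous markers was called. Of 6 fibroblast markers 2 rose and 1 fell, and 2 of 5 endothelial markers rose. Over all marker and pathway lists, no gene was called for PZH within AOM/DSS or in PZH against Control mice.

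The genes whose log2(FPKM + 1) level followed each member most closely over the 20 mice, among genes with a mean of at least 1 FPKM, were found by Pearson correlation. The mice fall into 4 groups, so these coefficients describe shared group differences as well. The genes named are the highest of very many correlations, a choice that gives high r even without a relation. Nlrp3 was closest to Tnfrsf4 (r = 0.92), Sema7a (0.91) and Ccl22 (0.91), and Nlrp6 to Slc5a1 (0.92), Acer1 (0.92) and Maob (0.91). Pycard was closest to Oat (0.90), Ndufb7 (0.89) and Ndufb8 (0.89), and Casp1 to Trim31 (0.94), Adtrp (0.87) and Clrn3 (0.86). Each of these genes of Nlrp3 was higher, and each of those of Nlrp6 lower, on average in AOM/DSS than in Control mice. This shared direction follows from the choice by correlation, since both members differed between these groups. Casp4 was closest to Selplg (0.85), Trim40 (0.80) and Ifi47 (0.79), Gsdmd to Pmaip1 (0.85), Gadd45b (0.82) and Rbm3 (0.81), and Aim2 to Naip3-ps1 (0.72), Trpm7 (0.71) and Fbxo3 (0.71). Gsdmc4 was closest to Bcs1l (0.86), Eldr (0.85) and Vsig2 (0.84), Gsdmc2 to Ndfip2 (0.81), Ugdh (0.79) and Gm27985 (0.79), and Gsdmc3 to Gm44432 (0.75), Fgfr3 (0.72) and Nedd4l (0.71).

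With the group means taken out, over the same 20 mice, the closest genes were partly others. They too were picked as the highest of very many, and how high r would be without any relation was not tested. Casp1 stayed with Trim31 (0.92) and Adtrp (0.82) and was also close to Upp1 (0.87), which Nlrp6 shared (0.82, after M6pr-ps at 0.85 and Ebag9 at 0.82). Nlrp3 was closest to Mfsd4b4 (0.86), Tnfrsf4 (0.81) and Slc7a8 (0.80), and Pycard to Gm8172 (0.77), Ndufb7 (0.75) and Rps6-ps4 (0.75). Selplg stayed closest to Casp4 (0.86, before Dhx32 at 0.80 and Rhot2 at 0.75) and Pmaip1 to Gsdmd (0.88, before Ak3 at 0.84 and Chmp2b at 0.83). The Gsdmc copies and Aim2 had no gene in common with each other: Gsdmc4 was closest to Ern2 (0.80), Ahcyl2 (0.78) and Mapre2 (0.77), Gsdmc2 to Tpp2 (0.80), Gm18101 (0.73) and Zfp276 (0.72), Gsdmc3 to Agtpbp1 (0.84), Ighv1-76 (0.79) and Rfx7 (0.75), and Aim2 to Trpm7 (0.77), Chd2 (0.74) and Tmem50b (0.71). Among the members themselves, Nlrp6 and Casp1 were closest, with r = 0.83 over the 20 mice and 0.73 with group means taken out.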

How the data were processed

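RNA-seq of mouse colon was analysed, 20 mice in 4 groups of 5, grouped by the labels. The authors filtered reads (FastQC, NGSQC), aligned them to mm10 with HISAT2 and deposited FPKM per transcript from StringTie, and called transcripts with DESeq. The labels and the paper name different rRNA depletion kits, and strandedness is not given in the sources used here. Deposited FPKM hold no counts, so no count test was used. Of 118434 transcripts per mouse, 22252 were assembled without a gene name and 150 of the 96182 Ensembl transcripts were not found in GENCODE M21. The other 96032 were summed into 32991 genes.

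The log2(FPKM + 1) values were compared with limma 3.58.1 (R 4.3.3, statmod 1.5.0), with an intensity trend, no covariates, the 10 mice of the 2 groups, two-sided tests and Benjamini-Hochberg adjustment over all genes with at least 0.5 FPKM in at least 5 mice (in the size of the smaller group when a mouse was left out). The interaction used all 20 mice. The method was tested on simulated data. One marker gene is not reported here. Nothing says whether mice shared cages or library batches. Members and lists were chosen with earlier results of these data known. All members are named. Of each pathway list up to 4 called genes with the largest difference in AOM/DSS against Control are named, of marker lists the counts and sums, and for likeness the 3 closest genes. Genes named beyond this (Nlrc4, Naip6, Gsdma2, Gsdma3, Pjvk, Casp4 and Aim2 transcripts, PZH levels of Retnlb, the type 2 cytokines, genes under the filter in Control mice and single markers) were chosen after their values were seen. Alternatives were a pseudocount of 0.1, no filter, at least 1 FPKM in every mouse, median-of-ratios scaling, the dominant transcript, mouse quality weights, all 20 mice in 1 model, each mouse left out, and, added after seeing the data, the Gsdmc sum and a fit without Control mice 17 and 50 (squamous markers over 100 FPKM).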

Additional observations from a re-analysis of the deposited data

Results flagged for a closer look

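Within a group of 5 mice, 7 of 40 combinations of member and group held a mouse set apart from the other 4 by Dixon's ratio at the 95% level. The nominal rate is 1 in 20, or 2 of 40. That rate holds for independent values with a normal distribution. Here FPKM were used without a log scale and the same mice recur, so no excess over chance can be read from the count. Aim2 accounted for 3 of them: Control mouse 48 at 26.7 FPKM (others 3.35 to 9.83), PZH mouse 46 at 29.6 FPKM (others 6.27 to 10.6) and PZH + AOM/DSS mouse 36 at 28 FPKM (others 6.43 to 12.5), all through the transcript Aim2-204. PZH mouse 8 was set apart for Nlrp3, at 0.78 FPKM (others 0.107 to 0.292), of which 0.697 FPKM came from the transcript Nlrp3-203 with 8 estimated fragments, and for Casp4, at 15.7 FPKM (others 10.6 to 11.8). Control mouse 37 was set apart for Nlrp6, at 54.4 FPKM (others 39.2 to 43.2). Control mouse 17 was set apart for Gsdmc2, at 74.6 FPKM (others 33.1 to 41.8), while its Gsdmc4 was the lowest of the Control mice, at 159.1 FPKM. The cause of these values was not tested.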

How the results depend on the processing

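No paired analysis was possible because each mouse number occurs in a single group. With the alternatives other than leaving out a mouse, the count of members called changed in 3 comparisons. Between AOM/DSS and Control mice it was 4 without a filter, with at least 1 FPKM in every mouse (where Nlrp3 could not be tested) and with mouse quality weights, and 6 with median-of-ratios scaling (Casp1 added). With the dominant transcript it was 5, with Casp4 in place of Gsdmc2. Between PZH + AOM/DSS and PZH mice it was 0 without a filter and 2 (Pycard and Gsdmc4) with at least 1 FPKM in every mouse, with median-of-ratios scaling and with all 20 mice in one model. Between PZH + AOM/DSS and Control mice it was 2 (Pycard and Gsdmc4) with all 20 mice in one model. With each mouse left out the counts ranged from 4 to 5 (AOM/DSS against Control), 0 to 1 (PZH within AOM/DSS) and 0 to 1 (PZH + AOM/DSS against PZH), and stayed at 0 in the other 3 comparisons. The call of Gsdmc2 in AOM/DSS against Control mice was also lost without a filter (adjusted p = 0.08298), with the dominant transcript (0.0787) and with mouse quality weights (0.06731). Median-of-ratios scaling took the median of all genes in that comparison from 0.09 to 0.01, and the directions of the called members did not turn. Leaving out Control mice 17 and 50 together, chosen after seeing the data, gave 3 members called in AOM/DSS against Control and 0 in the other comparisons with Control and the interaction.

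Directions turned for members that were not called. With the dominant transcript the value was 0.0467 for Aim2 (AOM/DSS against Control), -0.47 for Casp4 (PZH within AOM/DSS), and -0.66 for Casp4 and 0.49 for Gsdmc3 (interaction). It was -0.002367 for Aim2 with median-of-ratios scaling (PZH + AOM/DSS against PZH) and -0.10 for Casp4 with mouse quality weights (interaction). Without Control mice 17 and 50, Gsdmd turned to 0.14 (PZH against Control) and 0.20 (PZH + AOM/DSS against Control), and Casp4 to -0.08586 (interaction). With a mouse left out, the ranges that crossed 0 were, for AOM/DSS against Control, -0.55 to 0.12 (Aim2). For PZH against Control they were -0.22 to 0.01157 (Pycard), -0.00706 to 0.11 (Casp1), -0.06671 to 0.17 (Casp4) and -0.22 to 0.02586 (Gsdmd). For PZH within AOM/DSS they were -0.03168 to 0.24 (Casp4) and -0.16 to 0.32 (Gsdmc4), and against PZH -0.26 to 0.41 (Aim2) and -0.0377 to 0.20 (Gsdmd). For PZH + AOM/DSS against Control they were -0.17 to 0.00499 (Casp1), -0.15 to 0.10 (Gsdmd) and -0.56 to 0.15 (Gsdmc3), and for the interaction -0.06373 to 0.71 (Aim2), -0.11 to 0.19 (Casp4) and -0.68 to 0.03276 (Gsdmc3). The cause of these turns was not tested. Nlrp3 rests on 4 to 20 estimated fragments in mice without AOM and DSS, so its low levels are the least precise.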
